A study of Mus musculus with 17 samples.

Results

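Platelet-derived growth factor (PDGF) signalling was examined through 6 genes, the receptor genes Pdgfra and Pdgfrb and the ligand genes Pdgfa, Pdgfb, Pdgfc and Pdgfd. They were taken by gene symbol, whatever their values, and are 6 of the 55421 genes in the deposited count table. All 6 were among the 10481 genes that passed the filter on low counts, which asks for more than 10 CPM (counts scaled to a common library total) in at least 2 libraries. Pdgfd passed it through control bleomycin mice 3 and 4 alone.

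Total RNA-Seq was performed on cells grown from mouse lung and passaged once, with 1 mouse behind each of the 17 libraries. All mice carried floxed Ephb4 alleles and a Cre transgene (Ephb4f/f; Col1a2-CreERT2), in which the Col1a2 promoter drives a Cre recombinase that 4-hydroxytamoxifen activates. At 4 weeks of age, the mice called Ephb4 CKO received 4-hydroxytamoxifen (1 mg per day on 5 days), which deletes Ephb4 in cells that use the Col1a2 promoter. The mice called Ephb4 control received only corn oil at that age. At 6 weeks, bleomycin (1.2 U/kg), which injures the lung epithelium and leads to scarring, or PBS was given, and lungs were taken 14 days later. The groups held 4 control mice given PBS, 4 control mice given bleomycin, 5 CKO mice given PBS and 4 CKO mice given bleomycin. Cells that do not use the Col1a2 promoter keep Ephb4 in the CKO mice. The control mice received no 4-hydroxytamoxifen, so an effect of that agent and an effect of the deletion cannot be told apart.

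PDGF chains are secreted as dimers that join and activate receptor tyrosine kinases on mesenchymal cells. PDGF receptor α binds the A, B and C chains, and receptor β binds the B and D chains. The C and D chains carry a CUB domain that a protease such as tissue plasminogen activator or urokinase has to remove first. In the lung, fibroblasts and pericytes carry the receptors, and macrophages, platelets, epithelium and endothelium are known sources of ligand.

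In GENCODE M21 on GRCm38, Pdgfra (ENSMUSG00000029231) lies on chr5:75152292-75198215 (+ strand). Pdgfa (ENSMUSG00000025856) lies on chr5:138976014-138997370 (−) and Pdgfb (ENSMUSG00000000489) on chr15:79995874-80014977 (−). Pdgfc (ENSMUSG00000028019) spans chr3:81036416-81214040 (+) and Pdgfd (ENSMUSG00000032006) chr9:6168584-6378850 (+). All are protein-coding, and each value below counts reads over the exons of the whole gene.

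The 250 bases before the start of 1 receptor gene and 1 ligand gene are shown as examples. The promoter sequences used had no entry for Pdgfrb and Pdgfb, and the windows of Pdgfa and Pdgfd are not shown. Serum response factor, which binds the CArG box, is among the pathway genes measured. The windows shown come from the RefSeq genes on GRCm38.p6, both on the + strand, at chr5:75152001-75152250 for Pdgfra and chr3:81036166-81036415 for Pdgfc, and neither window overlaps an exon of the annotation. Capitals mark a CArG box.
Pdgfra: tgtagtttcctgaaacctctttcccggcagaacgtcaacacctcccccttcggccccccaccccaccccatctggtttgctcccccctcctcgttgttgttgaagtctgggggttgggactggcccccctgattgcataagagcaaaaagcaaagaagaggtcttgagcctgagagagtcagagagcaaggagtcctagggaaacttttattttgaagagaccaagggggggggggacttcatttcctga
Pdgfc: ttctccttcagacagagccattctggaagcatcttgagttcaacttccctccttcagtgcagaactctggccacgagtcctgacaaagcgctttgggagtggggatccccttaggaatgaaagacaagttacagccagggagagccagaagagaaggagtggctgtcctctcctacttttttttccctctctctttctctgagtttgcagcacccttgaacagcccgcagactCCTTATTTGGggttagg
The Pdgfc window holds 1 CArG box, whose first base is 17 bases before the start, and a CArG box is found on either strand in 1.47% of 32851 promoter windows of mouse genes. The Pdgfra window holds none. Of 3 common promoter motifs searched on both strands, neither window holds CCAAT, which occurs in 33.8% of those windows, GGGCGG, which occurs in 32.7%, or TATAAA, which occurs in 12.4%. These matches are matches of letters and not measured binding sites.

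The libraries held 66540022 to 120554468 counts (median 93075927), so even the lowest value reported below for a receptor, 0.492 CPM of Pdgfrb, rests on 29 counts. In 3 libraries, control bleomycin mouse 2 and CKO bleomycin mice 1 and 2, the level of Xist and of Y chromosome genes goes against the labelled sex, and the larger fold changes of the PDGF genes, the calls and the correlations over all libraries are also given without them, over the other 14. The labels call the cells primary fibroblasts. The summed CPM of 14 fibroblast marker genes was 5401 to 12088 in control bleomycin libraries and 152 to 7467 in the others. The summed CPM of 19 macrophage marker genes was higher than that fibroblast sum in 16 of 17 libraries, all but control bleomycin mouse 1. It was 1480.5 to 21677 in control bleomycin libraries, 11250 to 50493 in control PBS, 23641 to 42811 in CKO PBS and 23670 to 46847 in CKO bleomycin libraries. A large part of the macrophage sum was Lyz2 alone (863 to 36874 CPM, median 18476). The marker sums therefore do not give a ratio of cells. Among fibroblast markers, Tcf21 had no count in 3 libraries, Fbln1 in 2, and Fap and Sfrp1 in 1 each, while Col1a1, Col1a2 and Dcn had counts in all 17. In bulk RNA, fewer cells of a type and less RNA per cell cannot be told apart.

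The targeted gene Ephb4, a receptor tyrosine kinase for ephrin-B ligands, was present in every library. In control bleomycin mice 1 to 4 it measured 65.1, 13.1, 35.3 and 40.5 CPM, and in control PBS mice 24.2, 4.00, 33.4 and 2.32 CPM. In CKO bleomycin mice it measured 14.0, 9.53, 10.1 and 4.93 CPM, and in CKO PBS mice 7.70, 23.6, 8.97, 4.01 and 4.05 CPM. The groups overlapped. The log2 fold change of CKO against control was −2.0 (SE 0.79) after bleomycin and −0.73 (SE 0.72) after PBS, with adjusted p of 0.220 and 1.00 in edgeR's quasi-likelihood test (Benjamini-Hochberg adjusted). Without the 3 libraries above, the value after bleomycin was −2.68 with an adjusted p of 0.303 in the same test.

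The receptors spanned a far wider range of levels than most genes. Pdgfra, the receptor of alveolar and matrix fibroblasts, measured 210.1, 319, 87.4 and 119 CPM in control bleomycin mice 1 to 4. In control PBS mice 1 to 4 it measured 7.53, 7.95, 384 and 3.02 CPM. In CKO bleomycin mice it measured 36.3, 158, 10.5 and 3.18 CPM, and in CKO PBS mice it measured 2.89, 2.78, 167, 6.52 and 8.34 CPM. All 4 control bleomycin libraries were high, and 1 library in each other group, mouse 3 in both PBS groups and mouse 2 in CKO bleomycin, lay among them or above. The group means were 184 ± 104 CPM in control bleomycin, 101 ± 189 in control PBS, 52.0 ± 72.0 in CKO bleomycin and 37.4 ± 72.3 in CKO PBS (SD, n = 4, 4, 4 and 5). Every neighbouring pair in that order differed by less than the SD of either group. The highest library held 138 times the CPM of the lowest, and the SD of log2 CPM over the 17 libraries stood at percentile 97.3 of all genes tested.

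Pdgfrb (ENSMUSG00000024620, chr18:61045150-61085061, + strand), the receptor of pericytes and activated mesenchymal cells, was the most even member within control bleomycin cultures and the most variable one over all cultures. It measured 168, 192, 156 and 143 CPM in control bleomycin mice 1 to 4, a coefficient of variation of 12.7%. In control PBS mice it measured 6.11, 0.821, 110.2 and 0.531 CPM. In CKO bleomycin mice it measured 15.4, 119, 6.07 and 0.681 CPM, and in CKO PBS mice 3.60, 0.492, 28.6, 0.894 and 2.71 CPM. The 4 control bleomycin libraries lay above each of the other 13, and the highest of those were the same control PBS mouse 3, CKO bleomycin mouse 2 and CKO PBS mouse 3 as for Pdgfra. Means were 165 ± 20.9, 29.4 ± 53.9, 35.2 ± 56.0 and 7.25 ± 12 CPM in control bleomycin, control PBS, CKO bleomycin and CKO PBS (SD, n = 4, 4, 4 and 5). The last 3 did not differ beyond their spread. The range over libraries was 391-fold, and the SD of log2 CPM stood at percentile 99.1.

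**Figure D1:**
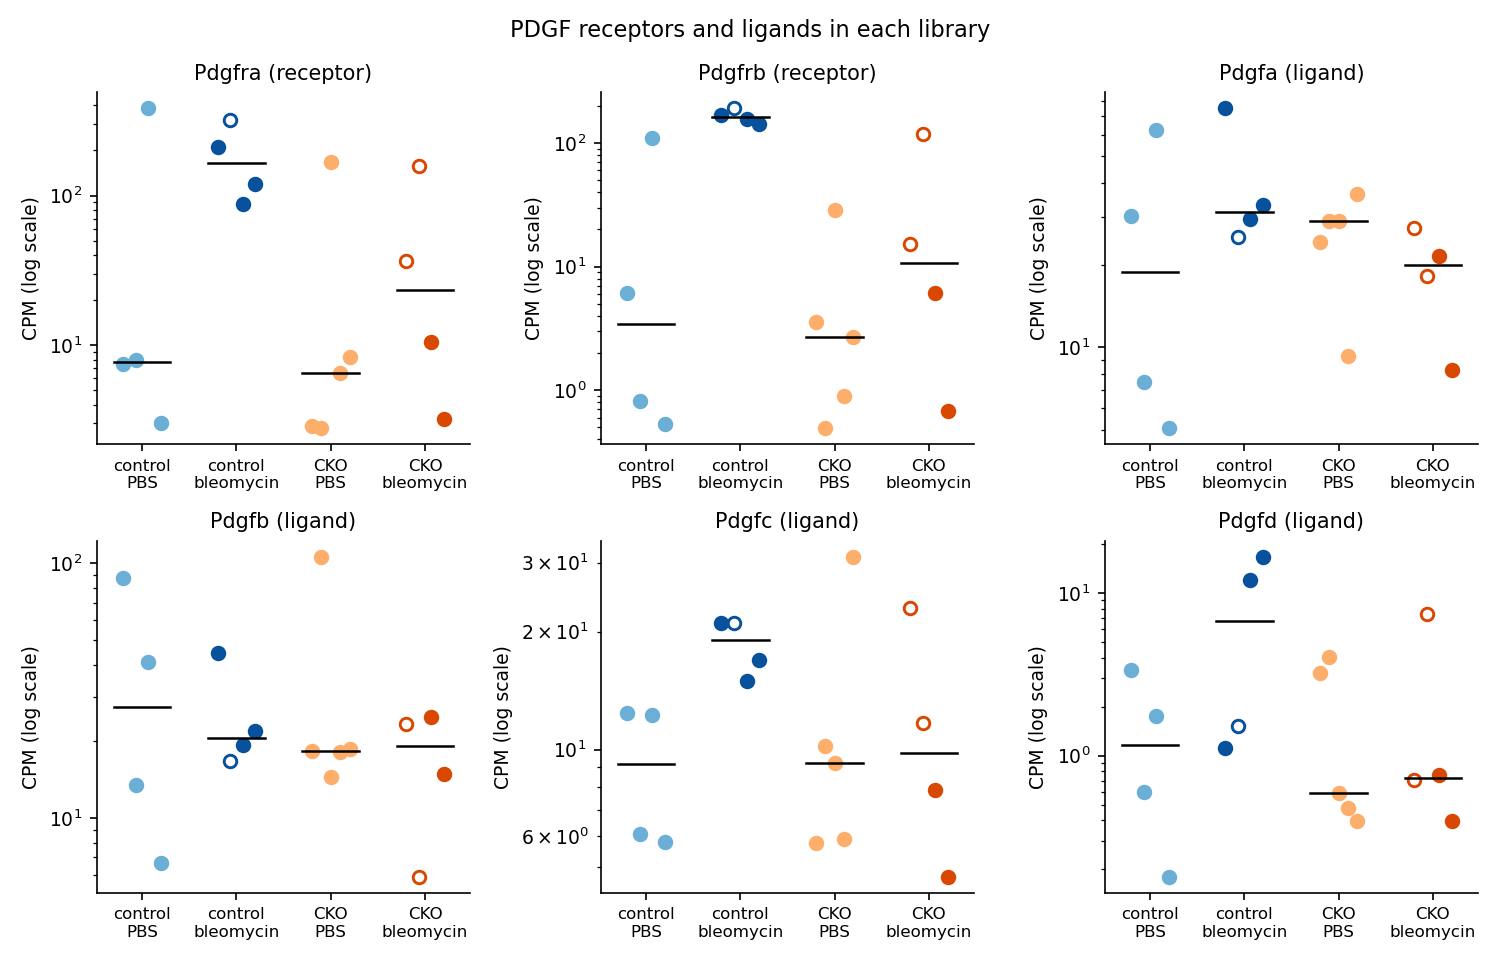
CPM (log scale) of each receptor and ligand gene in each library, by group, with 1 point per mouse and a line at the group median; open points are the 3 libraries whose sex genes go against the label. The 4 control bleomycin libraries sit above all others for Pdgfrb (143 to 192 CPM), while the ligands Pdgfa and Pdgfb overlap between all groups.

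The ligand genes varied less. Pdgfa, the A chain, which signals through receptor α, measured 75.1, 25.4, 29.4 and 33.2 CPM in control bleomycin mice and 30.2, 7.46, 62.4 and 5.06 CPM in control PBS mice. In CKO bleomycin mice it measured 27.3, 18.3, 21.6 and 8.29 CPM, and in CKO PBS mice 24.2, 29.1, 28.9, 9.28 and 36.4 CPM. The groups overlapped, and control bleomycin mouse 1 stood above the rest of its group. Means ran from 40.8 ± 23.1 CPM in control bleomycin through 26.3 ± 26.6 in control PBS and 25.6 ± 10.1 in CKO PBS to 18.9 ± 7.99 in CKO bleomycin (SD, n = 4, 4, 5 and 4), and no neighbouring means differed beyond their spread.

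Pdgfb, the B chain, which activates both receptors, was highest in single libraries of the PBS groups. It measured 87.7, 13.5, 41.1 and 6.67 CPM in control PBS mice and 18.3, 106, 14.5, 18.2 and 18.6 CPM in CKO PBS mice. In control bleomycin mice it measured 44.6, 16.7, 19.4 and 21.9 CPM, and in CKO bleomycin mice 23.4, 5.88, 25 and 14.8 CPM. The highest libraries, CKO PBS mouse 2 and control PBS mouse 1, also held the highest summed CPM of 8 epithelial markers (2183 and 1840, against at most 996 elsewhere) and of 4 mesothelial markers (602 and 402, against at most 99.1 elsewhere). The part of these cells in the Pdgfb level was not tested. In CKO PBS mouse 2 and control PBS mouse 1 the summed CPM of 5 megakaryocyte and platelet markers was 18.9 and 23.3, and 12.8 to 390 over all. Of these markers Pf4 reached 385 CPM and Ppbp 55.0, while Itga2b, Gp9 and Gp1bb reached at most 0.967, 0.0615 and 0.535. Group means of Pdgfb, from 37.2 ± 36.8 CPM in control PBS to 17.3 ± 8.81 in CKO bleomycin (SD, n = 4 each), overlapped in their spread.

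Pdgfc, the C chain, which needs proteolytic activation, measured 21.1, 21.0, 15.0 and 16.9 CPM in control bleomycin mice and 12.4, 6.07, 12.3 and 5.82 CPM in control PBS mice, and these groups did not overlap. In CKO bleomycin mice it measured 23.0, 11.7, 7.90 and 4.73 CPM, and in CKO PBS mice 5.76, 10.2, 9.24, 5.91 and 31.1 CPM. The highest value of all, in CKO PBS mouse 5, was in the library with the highest macrophage marker score. Means were 18.5 ± 3.06 CPM in control bleomycin, 12.4 ± 10.6 in CKO PBS, 11.8 ± 7.98 in CKO bleomycin and 9.14 ± 3.69 in control PBS (SD, n = 4, 5, 4 and 4). Neighbours in that order differed by less than the SD of at least 1 of the 2 groups. Over the 17 libraries the range was 6.57-fold, the narrowest of the 6 genes.

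Pdgfd, the D chain and the other ligand that needs proteolysis, was the scarcest. It measured 1.11, 1.52, 11.9 and 16.7 CPM in control bleomycin mice and 3.37, 0.596, 1.74 and 0.180 CPM in control PBS mice. In CKO bleomycin mice it measured 0.703, 7.42, 0.762 and 0.399 CPM, and in CKO PBS mice 3.23, 4.05, 0.591, 0.474 and 0.396 CPM. Control bleomycin mice 1 and 2 lay within the range of the other groups, mice 3 and 4 above it, and CKO bleomycin mouse 2 was the next highest. Means were 7.81 ± 7.76 CPM in control bleomycin and 1.47 ± 1.43 to 2.32 ± 3.40 in the other groups (SD), with overlapping groups throughout.

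The first comparison asked how bleomycin alters the cultured cells when Ephb4 is intact, and none of the 6 genes passed the test. In control mice the log2 fold change of bleomycin against PBS was 2.49 (SE 1.67) for Pdgfrb and 1.02 (SE 0.55) for Pdgfc, with adjusted p of 0.486 and 0.402 in edgeR's quasi-likelihood test (Benjamini-Hochberg adjusted). Pdgfd had 2.41 (SE 1.27, adjusted p = 0.393 in the same test), an estimate that only describes it here, since the gene passed the filter through control bleomycin mice 3 and 4 alone and was not tested without either. Pdgfra differed by 0.87 (SE 1.61), Pdgfa by 0.63 (SE 0.66) and Pdgfb by −0.54 (SE 0.78), with adjusted p of 0.809, 0.650 and 0.753 in the same test. Of the 6 genes, edgeR called 0 at an adjusted p of 0.05 (0% of all genes tested) and 0 at an unadjusted p of 0.05 (14.3% of all genes). DESeq2 called 0 (1.60% of the genes it tested) and had 1 (Pdgfd) at an unadjusted p of 0.05 (18.0% of those genes). limma voom called 0 (0% of genes) and had 3 (Pdgfra, Pdgfrb and Pdgfc) at that threshold (16.9% of genes). With all libraries, DESeq2 gave no p for Pdgfrb in any comparison.

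The receptor estimates in control mice turned on 1 PBS library. Without control PBS mouse 3, the log2 fold change was 4.95 for Pdgfra and 6.10 for Pdgfrb, with adjusted p of 0.115 and 0.0918 in edgeR's test. limma voom, which averages log values, gave 3.28 and 5.32 with all libraries kept, with adjusted p of 0.276 and 0.20. Groups did not overlap, with bleomycin higher, for 2 of 6 genes, Pdgfrb and Pdgfc, and for 5.72% of all genes. Without the 3 libraries whose sex genes go against the label, Pdgfra differed by 0.46, Pdgfrb by 2.41, Pdgfc by 0.97 and Pdgfd by 2.76, with adjusted p of 0.920, 0.563, 0.504 and 0.447 in edgeR's test. DESeq2 and limma voom also called 0 of the 6 without them (1.63% of genes in DESeq2). The fibroblast marker sum moved with these groups, and smooth muscle markers did too, with a sum of 2917 to 4020 CPM in control bleomycin libraries and at most 676 in control PBS libraries. All 4 control bleomycin mice and control PBS mouse 1 have animal numbers of series 12 and the other control PBS mice of series 11, so within a series this comparison rests on 1 PBS library. With the series as a covariate the estimates were 3.11 for Pdgfra, 3.05 for Pdgfrb, 0.80 for Pdgfc and 0.70 for Pdgfd. With the fibroblast score as a covariate they turned negative for Pdgfra (−1.75), Pdgfrb (−0.33) and Pdgfa (−0.67). Of the control PBS libraries only mouse 3 (6.97) had a score within the control bleomycin range of 6.81 to 7.97. The part of fibroblast content was therefore not tested by this fit.

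The second comparison asked what Ephb4 deletion changes after bleomycin, the setting in which the study examined fibrosis. It shares the control bleomycin mice with the first. All 6 genes measured lower in CKO than in control cultures, as did 49.3% of all genes. The log2 fold change was −2.23 (SE 1.66) for Pdgfrb and −1.82 (SE 1.64) for Pdgfra, with adjusted p of 0.421 and 0.509 in edgeR's quasi-likelihood test (Benjamini-Hochberg adjusted). Among ligands it was −1.75 (SE 1.24) for Pdgfd, −1.11 (SE 0.67) for Pdgfa, −0.65 (SE 0.55) for Pdgfc and −0.57 (SE 0.79) for Pdgfb, with adjusted p of 0.403, 0.331, 0.480 and 0.672 in the same test. The Pdgfd estimate again only describes the gene, because of how it passed the filter. Of the 6, edgeR called 0 (0% of all genes) and had 0 at an unadjusted p of 0.05 (20.2% of all genes). DESeq2 called 0 (3.84%) and had 0 at an unadjusted p of 0.05 (26.2% of genes). limma voom called 0 (0%) and had 1 at that threshold (23.0% of genes), Pdgfrb, with a log2 fold change of −3.63 and an adjusted p of 0.130.

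Groups did not overlap, with CKO lower, for 1 of 6 genes, Pdgfrb, and for 12.2% of all genes. CKO bleomycin mouse 2, a library whose sex genes go against the label, was the one closest to the control range for both receptors. Without it the log2 fold change was −3.46 for Pdgfra, −4.48 for Pdgfrb and −3.65 for Pdgfd, and adjusted p in edgeR's test was 0.201 for Pdgfrb and 0.182 for Pdgfd. Without all 3 libraries whose sex genes go against the label, it was −4.39 for Pdgfra, −5.57 for Pdgfrb, −1.53 for Pdgfc and −4.13 for Pdgfd, with adjusted p of 0.372, 0.312, 0.312 and 0.302 in edgeR's test. That leaves 3 control libraries, all of animal number series 12, and 2 CKO libraries, both of series 11. Genotype and series therefore cannot be told apart in this fit, and the tools differed there. DESeq2 called 2 of the 6 (4.48% of genes), Pdgfrb (log2 fold change −5.55, adjusted p = 0.0411) and Pdgfd (−4.11, adjusted p = 0.0423), while limma voom gave −6.32 and −3.38 with adjusted p of 0.317 and 0.574, and called 0. The Pdgfd values and call only describe it here, since the gene passed the filter through control bleomycin mice 3 and 4 alone. The fibroblast marker sum was 271 to 1733 CPM in CKO bleomycin and 5401 to 12088 in control bleomycin libraries, and the smooth muscle marker sum 24.7 to 1942 CPM against 2917 to 4020. The part of smooth muscle markers in these differences was not tested. With the fibroblast score as a covariate the estimates turned positive for Pdgfra (1.27), Pdgfrb (0.75), Pdgfa (0.48) and Pdgfc (0.09). That score was 6.81 to 7.97 in control bleomycin and −0.30 to 5.76 in CKO bleomycin libraries. The groups share no range of it, so this fit cannot separate score and genotype. The part of fibroblast content in the receptor difference was not tested. With the animal number series as a covariate they were −1.90 for Pdgfra, −2.25 for Pdgfrb and 0.26 for Pdgfb, the last of which changed direction.

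**Figure D2:**
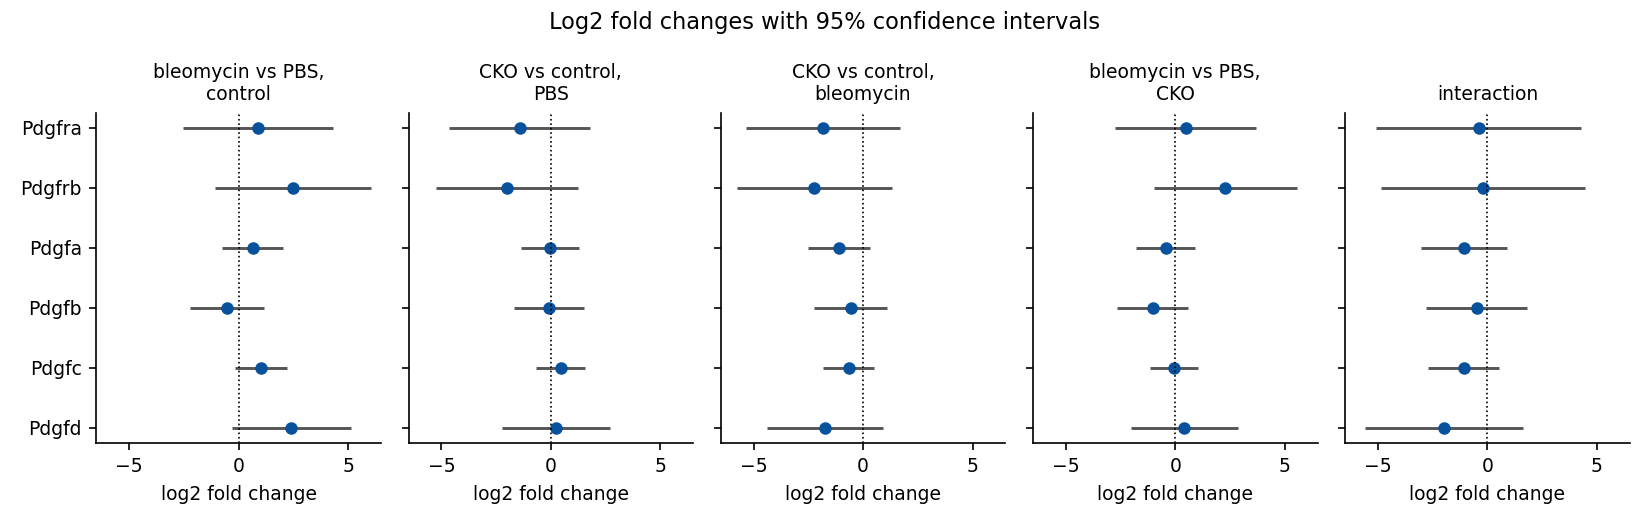
Log2 fold change of each gene (points) with its 95% confidence interval from edgeR (lines) in the 4 comparisons and in the interaction of genotype and bleomycin, with a dotted line at 0. Every interval crosses 0, and those of Pdgfra and Pdgfrb are the widest, reaching for Pdgfrb from −1.08 to 6.05 in the comparison of bleomycin with PBS in control mice.

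After PBS, which compares genotypes without lung injury, the values of the genotypes overlapped for all 6 genes, and 0.248% of all genes tested did not overlap. The log2 fold change of CKO against control was −1.43 (SE 1.52) for Pdgfra and −2.02 (SE 1.52) for Pdgfrb, and between −0.08 and 0.45 for the ligands, with adjusted p of 1.00 for each in edgeR's quasi-likelihood test. edgeR, DESeq2 and limma voom each called 0 of the 6 (0%, 0.00962% and 0% of genes), and 0 had an unadjusted p under 0.05 in edgeR (1.99% of genes), DESeq2 (3.36%) or limma voom (0.458%). DESeq2 again called 0 without the 3 libraries (0.00978% of genes). Both receptor values turned on single libraries: they were 2.60 and 1.55 without control PBS mouse 3, and −4.32 and −3.94 without CKO PBS mouse 3, with an adjusted p of 0.897 for both of the latter.

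In CKO mice, bleomycin against PBS gave 2.28 (SE 1.54) for Pdgfrb, 0.47 (SE 1.51) for Pdgfra and −1.03 (SE 0.76) for Pdgfb, and between −0.44 and 0.41 for the other ligands, with an adjusted p of 1.00 for each in edgeR's quasi-likelihood test. Again 0 of 6 were called by edgeR (0% of genes), DESeq2 (0.00962%) or limma voom (0%), 0 had an unadjusted p under 0.05 (0.964%, 1.78% and 0.267% of genes in these tools), and all 6 overlapped (0.0859% of genes did not). Without the 3 libraries whose sex genes go against the label, 2 of which are in this comparison, the values were −1.13 for Pdgfrb, −2.47 for Pdgfra and −1.64 for Pdgfd, and DESeq2 called 0 (0.0391% of genes). The difference between genotypes in the response to bleomycin, tested as an interaction, was −2.0 (SE 1.70) for Pdgfd, −1.09 (SE 0.75) for Pdgfc, −1.07 (SE 0.92) for Pdgfa, −0.49 (SE 1.08) for Pdgfb, −0.40 (SE 2.20) for Pdgfra and −0.21 (SE 2.19) for Pdgfrb. Adjusted p was 0.916 to 0.993 in edgeR's test, and 0 of 6 were called or had an unadjusted p under 0.05 in edgeR (0% and 3.46% of genes), DESeq2 (0% and 5.24%) or limma voom (0% and 2.86%). The interaction without the 3 libraries was −1.99 for Pdgfc and −4.40 for Pdgfd, with an adjusted p of 0.763 for both in edgeR's test, and DESeq2 called 0 (0.293% of genes). Both interaction values of Pdgfd only describe it, because of how it passed the filter.

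Levels were compared between genes as CPM per kb of exon. In control bleomycin libraries Pdgfrb was the highest of the 6 in every mouse, at 26.2 to 35.1 CPM per kb, above Pdgfra at 8.72 to 31.9, and the receptors made up 56.8 to 80.0% of the summed level of the 6 genes. In the other groups the receptor share was 64.0% in control PBS mouse 3, 59.7% in CKO PBS mouse 3 and 75.9% in CKO bleomycin mouse 2, and 0.952 to 25.1% in the remaining 10 libraries. Pdgfa was the highest ligand per kb in 12 libraries and Pdgfb in 5. The ratio of Pdgfa to Pdgfb per kb was 2.02 to 2.25 in control bleomycin libraries (2.08 ± 0.112, SD, n = 4) and 0.364 to 4.14 in the others. The ratio of Pdgfra to Pdgfrb per kb was below 1 in all 4 control bleomycin libraries (0.307 to 0.908) and 0.674 to 5.29 in control PBS libraries. It was 0.726 to 2.55 in CKO bleomycin and 0.439 to 3.99 in CKO PBS libraries. The order of the receptors depends on the exon lengths used, 10.024 kb for Pdgfra and 5.478 kb for Pdgfrb. By CPM alone the ratio was 1.25 and 1.66 in control bleomycin mice 1 and 2, and 0.562 and 0.833 in mice 3 and 4. Pdgfc reached at most 6.11 and Pdgfd at most 5.30 CPM per kb.

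**Figure D3:**
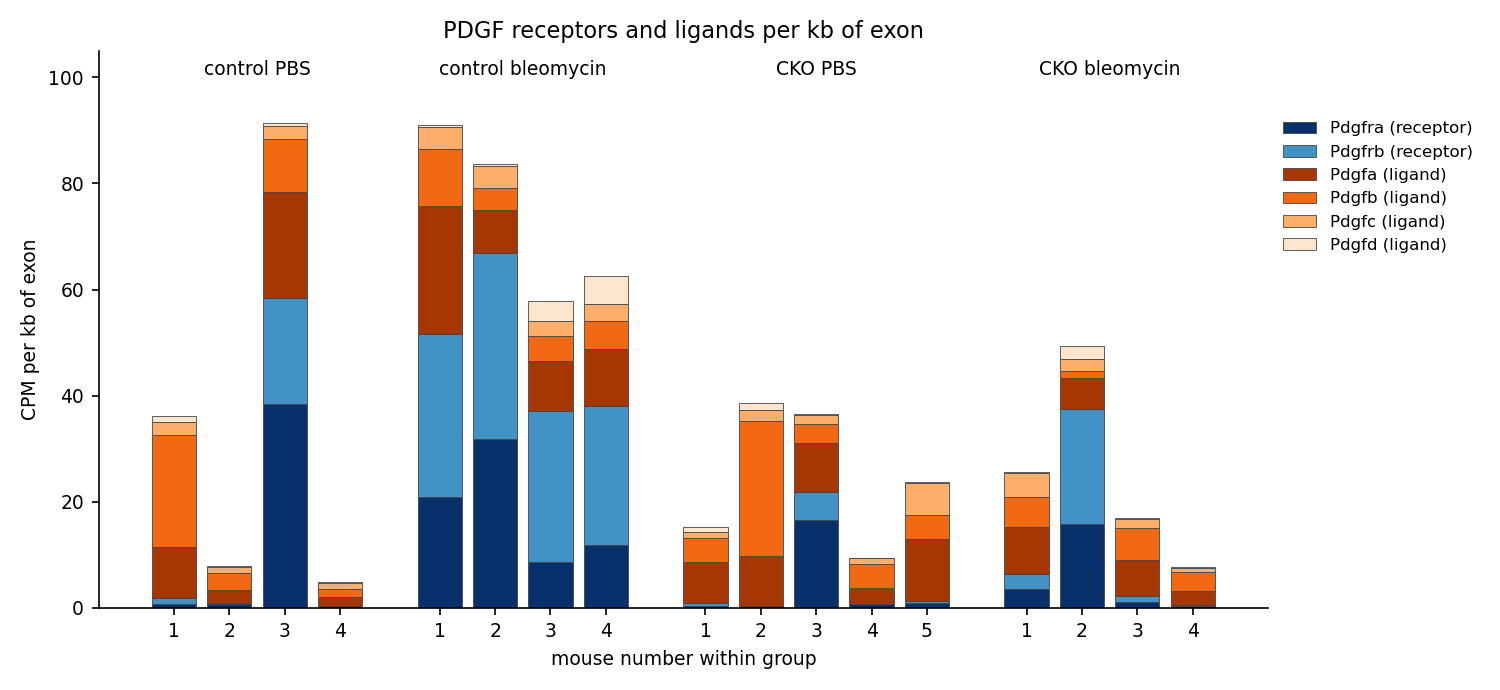
Stacked CPM per kb of exon of the 6 genes in each library, by mouse number within each group, with receptors in shades of blue and ligands in shades of orange. The receptors make up 56.8 to 80.0% of the bar in control bleomycin mice, and in the other groups only control PBS mouse 3, CKO PBS mouse 3 and CKO bleomycin mouse 2 have a receptor share above 25.1%.

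Whether receptors go with fibroblast markers and ligands with macrophage markers from culture to culture was examined over all 17 libraries. A library's score is the mean log2 CPM of a list's genes that passed the filter, 12 for fibroblasts and 19 for macrophages, and no PDGF gene is in either list. CPM are shares of 1 total, so markers of 2 cell types in 1 culture oppose each other. The 12 correlations (6 genes, 2 scores) form 1 family, with permutation p from 100000 resamples adjusted by Benjamini-Hochberg. The share of all genes tested that correlates as strongly with either score was not computed, so the values do not set the PDGF genes apart from other genes. Pdgfrb had Pearson's r = 0.985 and Spearman's rho = 0.956 with the fibroblast score, and Pdgfra r = 0.936 and rho = 0.880, each with a permutation p of 1.00e-05 for r, the smallest that the resamples can give, and an adjusted p of 6.00e-05. For rho the adjusted permutation p was 1.20e-04 for both. Without the 2 libraries farthest from the median score r was 0.983 and 0.919, with each group's mean removed 0.984 and 0.925, and without the 3 libraries whose sex genes go against the label 0.989 and 0.928.

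The libraries left a gap in the fibroblast score between 3.62 and 5.36, with 10 libraries below and 7 above. Below the gap r was 0.948 for Pdgfrb and 0.697 for Pdgfra, with permutation p of 2.80e-04 and 0.0191 (0.00168 and 0.0383 adjusted over 6 genes). Above it r was 0.797 for Pdgfrb (exact permutation p = 0.00972, adjusted 0.0292) and 0.268 for Pdgfra (exact permutation p = 0.554, adjusted 0.664). Spearman's rho above the gap was 0.786 for Pdgfrb (exact permutation p = 0.0480, adjusted 0.144) and 0.357 for Pdgfra (exact permutation p = 0.444, adjusted 0.533). Below it rho was 0.855 and 0.624, with adjusted permutation p of 0.0188 and 0.0718. Within animal number series 11 and 12 r with the fibroblast score was 0.994 and 0.974 for Pdgfrb and 0.958 and 0.952 for Pdgfra, with adjusted exact permutation p of 2.98e-04, 1.98e-04, 4.46e-04 and 0.00117.

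Over all 17 libraries, ligands followed the fibroblast score less closely than the receptors did, and none followed the macrophage score upward. With the fibroblast score r was 0.754 for Pdgfa (rho 0.684), 0.661 for Pdgfc (rho 0.703) and 0.554 for Pdgfd (rho 0.566), with raw permutation p of 4.30e-04, 0.00473 and 0.0225 and adjusted p of 0.00172, 0.0142 and 0.0372. Pdgfb had r = 0.0979 (rho 0.321), with a permutation p of 0.71 both raw and adjusted. Without the 2 farthest libraries r was 0.741 for Pdgfa, 0.571 for Pdgfc, 0.670 for Pdgfd and 0.0425 for Pdgfb. In series 12 alone r was 0.352 for Pdgfa, 0.647 for Pdgfc, 0.119 for Pdgfd and −0.482 for Pdgfb, with adjusted exact permutation p of 0.653, 0.164, 0.754 and 0.457. In series 11 r was 0.925, 0.514, 0.802 and 0.732 for Pdgfa, Pdgfc, Pdgfd and Pdgfb, with adjusted exact permutation p of 0.00526, 0.229, 0.0301 and 0.0651. Without the 3 libraries whose sex genes go against the label r was 0.822, 0.665, 0.571 and 0.267 in that order, and the adjusted permutation p of Pdgfd was 0.0519. Of the ligands, Pdgfc alone had an adjusted p under 0.05 on both sides of the gap in the score, with r = 0.687 below (permutation p = 0.0271, adjusted 0.0406) and r = 0.940 above (exact permutation p = 0.00198, adjusted 0.0119). For Pdgfa r was 0.838 below (permutation p = 0.00481, adjusted 0.0144) and 0.545 above (exact permutation p = 0.186, adjusted 0.279). Above the gap r was higher for Pdgfc, Pdgfb (0.669) and Pdgfa than for Pdgfra (0.268), and lower for Pdgfd (0.0713). Only Pdgfc also exceeded Pdgfrb (0.797) there.

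With the macrophage score every r over the 17 libraries was negative. It was −0.600 for Pdgfa (rho −0.578), −0.526 for Pdgfrb (rho −0.564) and −0.473 for Pdgfra (rho −0.390), with raw permutation p of 0.00802, 0.00715 and 0.0248 and adjusted p of 0.0160, 0.0160 and 0.0372. It was −0.397 for Pdgfb (rho −0.471), −0.321 for Pdgfd (rho −0.799) and −0.280 for Pdgfc (rho −0.233), with raw permutation p of 0.135, 0.215 and 0.303 and adjusted p of 0.180, 0.258 and 0.331. By rank, 2 of these calls turned: the adjusted permutation p for rho was 9.60e-04 for Pdgfd and 0.147 for Pdgfra, and 0.0313, 0.0313, 0.0765 and 0.367 for Pdgfa, Pdgfrb, Pdgfb and Pdgfc. Control bleomycin mouse 1 stands apart on this score, at 4.05 against 7.15 to 9.35 in the other 16. Without it and CKO PBS mouse 5, the 2 farthest, r was −0.771 for Pdgfa, −0.788 for Pdgfd, −0.576 for Pdgfrb, −0.469 for Pdgfra, −0.445 for Pdgfc and −0.444 for Pdgfb, and the adjusted permutation p was then 0.104 for Pdgfra and 0.00224 for Pdgfd. Without the 3 libraries whose sex genes go against the label, the adjusted permutation p for r was 0.0312 for Pdgfra and 0.286 for Pdgfd. With group means removed, none of the 6 had an adjusted permutation p under 0.05.

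**Figure D4:**
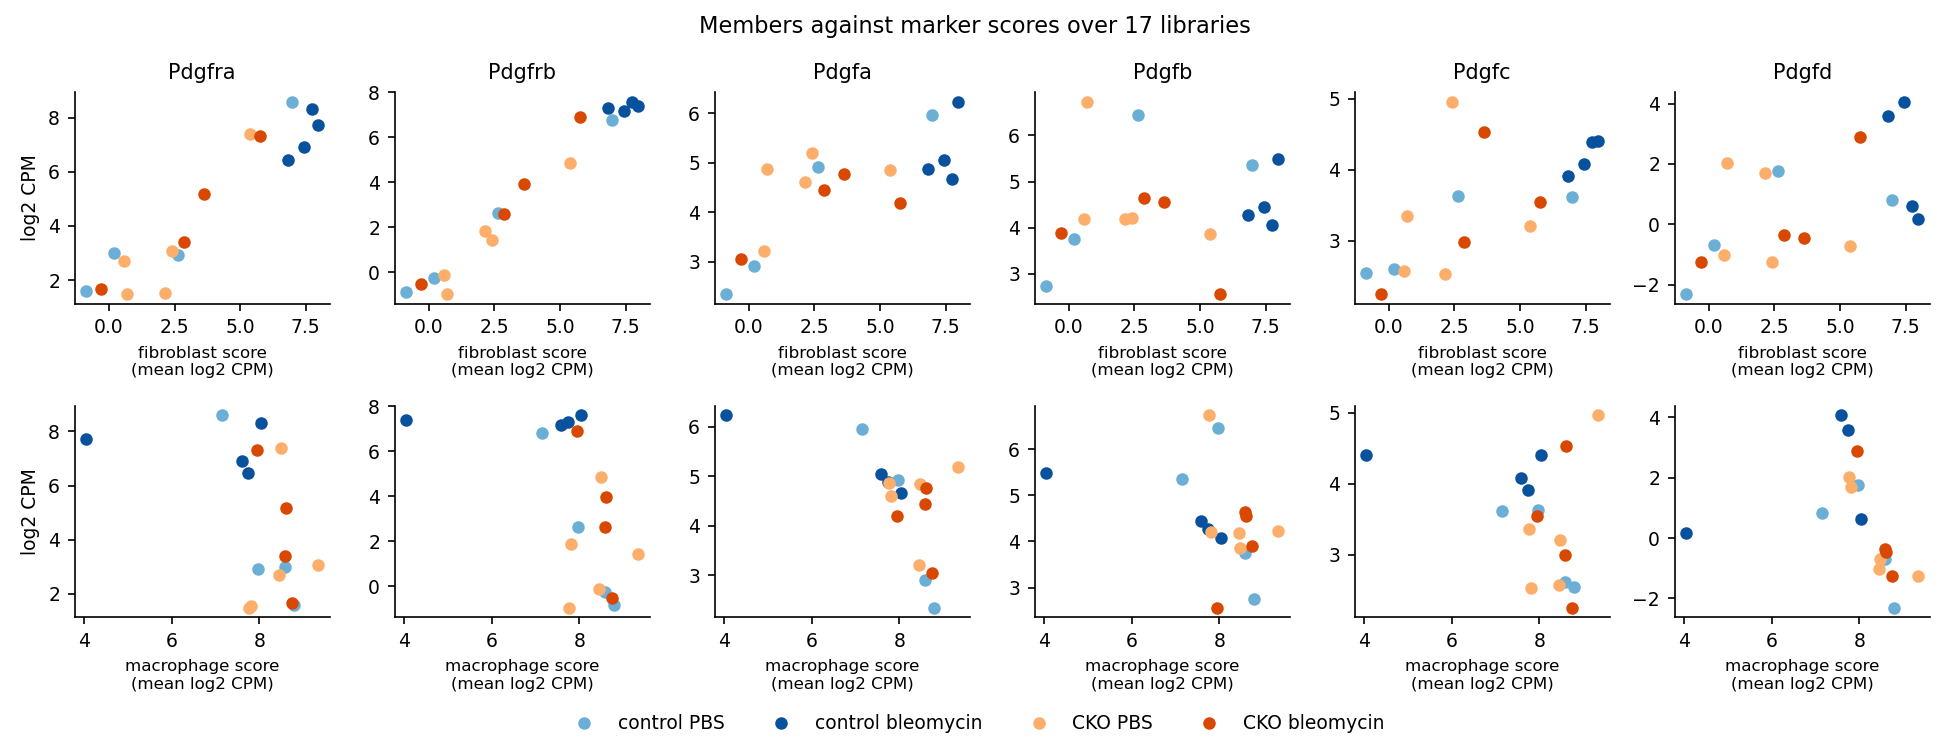
Log2 CPM of each gene against the fibroblast score (upper row) and the macrophage score (lower row), each the mean log2 CPM of its marker genes, with 1 point per library coloured by group. Pdgfrb lies close to a line against the fibroblast score (r = 0.985), Pdgfb shows little relation to it (r = 0.0979), and 1 control bleomycin library stands apart at a macrophage score of 4.05.

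The genes whose pattern over the 17 libraries was nearest to each member were found by the mean absolute difference of log2 CPM after each gene's mean was removed. For Pdgfrb they were Bgn, a small matrix proteoglycan (0.33), Pdzrn3 (0.41) and Bnc2, a zinc finger protein (0.48), against a median of 2.93 over all genes. For Pdgfra they included Tgfbr3, the TGF-β co-receptor betaglycan (0.58), and Dkk3 (0.59), against a median of 2.44. The receptors differed from each other by 1.06 on this measure. Among ligands, Pdgfa was nearest to Clstn1 (0.34), Ankrd50 (0.37) and Carmil1 (0.38), and Pdgfb to Unc13b (0.27), Tuft1 (0.33) and Ccdc120 (0.36), against medians of 0.88 for both. Pdgfc was nearest to Nsmaf (0.35), Chst14 (0.36) and Itgb5, an integrin chain (0.37), against 0.79, and Pdgfd to Eda2r (0.58), Gpr39 (0.67) and Map1b (0.69), against 1.58. Within the family Pdgfa and Pdgfc were closest (0.60) and Pdgfrb and Pdgfb farthest apart (3.01).

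The wider pathway was followed through 82 genes in 6 lists, of which 74 passed the filter. edgeR called 0 of the 74 at an adjusted p of 0.05 in any comparison, and so did limma voom. DESeq2 called 3 in CKO against control mice given bleomycin (Pik3cb, Cbl and Egr2), where it called 3.84% of all genes, 3 in bleomycin against PBS in control mice (Pik3cb, Pik3r2 and Egr2), where it called 1.60%, and 0 in the other comparisons. DESeq2 without the 3 libraries whose sex genes go against the label called 5 of 71 (Sparc, Vegfc, Csf1, Cbl and Ptpn1; 4.48% of all genes), 2 (Flt1 and Csf1; 1.63%) and, in the interaction, 1 (Csf1; 0.293%), and edgeR and limma voom called 0 of 72. Without those libraries, genotype and animal number series cannot be told apart in CKO against control mice given bleomycin. In CKO against control mice given bleomycin, 7 measured higher and 7 lower at an unadjusted p of 0.05, with a median log2 fold change of −0.15 against 0.01 over all genes. In bleomycin against PBS in control mice these counts were 4 and 6, with a median of 0.07 against −0.06. CKO against control after PBS gave 2 and 0, bleomycin against PBS in CKO mice 1 and 3, and the interaction 0 and 5. The shares of all genes at that threshold were those given above, 20.2%, 14.3%, 1.99%, 0.964% and 3.46%.

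Among the proteins that activate or bind the ligands, 12 of 14 were tested (Pcsk6 and A2m were not), and in CKO against control mice given bleomycin 8 measured lower and 4 higher. Sparc, a matrix protein that binds PDGF chains, had a log2 fold change of −3.07 (SE 1.20, unadjusted p = 0.0222, adjusted p = 0.219 in edgeR's test), with groups that did not overlap. Plat, tissue plasminogen activator, a protease of the C chain, had −2.64 (adjusted p = 0.263), also without overlap. The proprotein convertases Pcsk5, Furin and Pcsk7 had −4.30, −0.68 and −0.08, and Thbs1, St14 and Nrp1 −1.31, −0.20 and −0.13. Plau, urokinase, a protease of the D chain, had 0.71, its receptor Plaur 0.80, the co-receptor Nrp2 0.74 and Lrp1, an endocytic receptor, 0.37. Adjusted p for these 10 ran from 0.250 to 0.914 in the same test. In control mice Sparc measured 2.26 higher after bleomycin than after PBS (SE 1.16, adjusted p = 0.383 in edgeR's test).

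Of the related receptor kinases, Csf1r, the receptor for macrophage colony-stimulating factor and also a gene of the macrophage list, had a log2 fold change of 1.26 in CKO against control mice given bleomycin (SE 0.56, adjusted p = 0.233 in edgeR's test). Flt1 had 0.80, Kdr 0.02, Kit −1.78 and Flt4 −0.83, with adjusted p of 0.407, 0.989, 0.30 and 0.515 in the same test. Of the relatives of the ligands, Pgf, placental growth factor, had −2.61 (SE 1.00, adjusted p = 0.218), Vegfc −1.88, Vegfa −0.86 and Vegfd 0.05. In control mice Csf1, the ligand of Csf1r, named after its values were seen, measured 2.66 higher after bleomycin (SE 1.03, unadjusted p = 0.0203, adjusted p = 0.320 in edgeR's test), with groups that did not overlap.

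Receptor effectors went in both directions in CKO against control mice given bleomycin. The phosphoinositide 3-kinase subunits Pik3cb and Pik3r2 had 1.16 (SE 0.28) and −0.57 (SE 0.19), the adaptor Grb2 0.97, the Src-family kinase Fyn −0.72 and Stat3 −0.49, with adjusted p of 0.187, 0.210, 0.239, 0.233 and 0.245 in edgeR's test. Of the genes that end receptor signalling, Cbl, a ubiquitin ligase for the receptors, had 0.99 (SE 0.24), and the phosphatases Ptpn1 and Ptprj 0.80 and 0.79, with adjusted p of 0.187, 0.208 and 0.220 in the same test. Grb10 had −2.53, Socs3 −1.45 and Acp1 −0.26, with adjusted p of 0.235, 0.298 and 0.330. Of the early response genes, Egr2 had 1.55 (SE 0.43), Fos 0.96 and Plk2 0.41, and Srf, serum response factor, −0.57 (SE 0.20), Egr1 −1.01 and Ier2 −0.33, with adjusted p of 0.196, 0.301, 0.679, 0.210, 0.341 and 0.487 in edgeR's test. In control mice Srf measured 0.52 higher after bleomycin (SE 0.20, unadjusted p = 0.0176, adjusted p = 0.320 in edgeR's test). Its control bleomycin libraries lay above both the control PBS and the CKO bleomycin libraries without overlap. The same held for Sparc, Grb10 and Stat3, and in the opposite direction for Egr2. Both comparisons share the control bleomycin libraries. Of all genes, 5.72% lay higher without overlap in the first comparison and 12.2% lower in the second.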

How the data were processed

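Per the labels and the study's methods, total RNA libraries (TruSeq Stranded) were sequenced with 75 paired-end cycles on a NextSeq in runs of 8 and 9 libraries. The run of each library is not given in the sources used here, so run and group could not be separated. The submitters' processing notes name Cutadapt 1.18, HISAT2 2.1.0, StringTie and GRCm38. The deposited values are whole-number counts per gene that the authors derived from StringTie coverage, and are not normalized. Such counts are coverage times transcript length divided by read length, so they approximate read numbers, and reads of overlapping genes may be shared.

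The filter kept the 10481 of 55421 genes above 10 CPM in 2 or more of the 17 libraries. Library totals were scaled by TMM and tested with edgeR 4.0.16 (quasi-likelihood, 1 mean per group over all 17 libraries, Benjamini-Hochberg within each comparison) in R 4.3.3. The study's own model was DESeq2 with a batch number as a covariate, which could not be fitted because each library's batch number is not given in the sources used here. The dispersion common to all genes was 0.311, and its square root 0.557. Marker scores were mean log2 CPM (prior count 2), correlated with Python 3.11.15 and scipy 1.17.1 (100000 permutations, all permutations below 10 libraries, two-sided). The widest gap in the fibroblast score was a split chosen after seeing the data, as were the correlations, DESeq2 and limma voom without the 3 libraries whose sex genes go against the label. Exon lengths came from GENCODE M21 (55154 of 55421 identifiers matched, all 6 PDGF genes among them). Each library is 1 mouse, and the counts of any pair of libraries differed in at least 94.9% of genes with counts. The tests were checked on simulated counts.

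Alternatives were DESeq2 1.42.0, limma 3.58.1 with voom, other scalings and filters, fits of only the groups compared, covariates (labelled sex, animal number series, order of the columns, marker scores), the 3 libraries left out whose sex genes go against the label, and each library left out in turn. The 6 genes were named in full. Of 6 pathway lists, all ligand activators and binders were named and, in each other list, up to 3 genes per direction with the smallest unadjusted p in CKO against control mice given bleomycin. The 3 genes with the nearest pattern were named for each member. A pair of genes that these rules name is not reported here. Marker lists for 12 cell types or subtypes were summed, of which neutrophil markers reached at most 83.6 CPM, lymphocyte markers 36.0, pericyte markers 54.6 and endothelial markers 350.3, while alveolar fibroblast markers summed to 278 to 717 and adventitial fibroblast markers to 18.9 to 841. Most of the alveolar sum was Macf1 (239 to 709 CPM), while Tcf21, Inmt and Ces1d had medians of 0.082, 0.232 and 0.452 CPM. The genes and lists were chosen with earlier results of these data known.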

Additional observations from a re-analysis of the deposited data

Results flagged for a closer look

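In 11 of the 28 sets of values examined (6 genes and the receptor share in 4 groups), 1 library lay far from the rest of its group, with a gap to the next library above Dixon's critical value. That value is passed in about 1 set in 20 when values are normally distributed. These are untransformed CPM or percentages, and each library apart was the highest of its set, so the rate due to chance is not known here. The sets also share libraries. In control PBS mouse 3, Pdgfra was 384 CPM, Pdgfrb 110.2 CPM and the receptor share of the 6 genes per kb 64.0%. In CKO PBS mouse 3, Pdgfra was 167 CPM, Pdgfrb 28.6 CPM and the receptor share 59.7%. In CKO bleomycin mouse 2, Pdgfrb was 119 CPM and Pdgfd 7.42 CPM. These 3 libraries are also the ones outside the control bleomycin group whose fibroblast score lay above the gap between 3.62 and 5.36. Pdgfa at 75.1 CPM in control bleomycin mouse 1 was in the library with the lowest macrophage score (4.05). Pdgfb at 106 CPM in CKO PBS mouse 2 was in the library with the highest summed epithelial and mesothelial markers (2183 and 602 CPM). The mesothelial sum there was almost all Msln. Pdgfc at 31.1 CPM in CKO PBS mouse 5 was in the library with the highest macrophage score (9.35) and the highest summed megakaryocyte and platelet markers (390.4 CPM). That last sum was almost all Pf4 (385 CPM), with Itga2b, Gp9 and Gp1bb at most 0.967, 0.0615 and 0.535 CPM in any library. The part of cells with these markers in the values was not tested.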

How the results depend on the processing

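The count of the 6 genes called was 0 in 78 counts under other settings (1 per setting and comparison) and in 85 counts with 1 library left out (17 libraries by 5 comparisons). The exception, 1 count, was DESeq2 without the 3 libraries whose sex genes go against the label, with 2 (Pdgfrb and Pdgfd) in CKO against control mice given bleomycin, a fit chosen after seeing the data. Genotype and animal number series cannot be told apart in that fit. The call of Pdgfd only describes it, since it passed the filter through control bleomycin mice 3 and 4 alone. Some of the counts above cover 5 genes: Pdgfd was not tested where it failed the filter, and DESeq2 gave no p for Pdgfrb with all libraries. Over all genes DESeq2 called 166 in bleomycin against PBS in control mice and 399 in CKO against control mice given bleomycin, where edgeR called 0 and limma voom 0, and the cause was not tested. Of the log2 fold changes, 426 kept their direction and stayed short of the threshold under other settings, 2 kept it and passed (those of Pdgfrb and Pdgfd just named, −5.55 and −4.11), and 44 changed direction. With the fibroblast score as a covariate the last were, for bleomycin against PBS in control mice, Pdgfra −1.75, Pdgfrb −0.33 and Pdgfa −0.67, and for CKO against control after bleomycin Pdgfra 1.27, Pdgfrb 0.75, Pdgfa 0.48 and Pdgfc 0.093. In the same fit Pdgfa was 0.56 for CKO against control after PBS, Pdgfd −0.71 for bleomycin in CKO mice, and the interaction 1.94 for Pdgfra and 1.36 for Pdgfrb. With the macrophage score Pdgfa was 0.38 and Pdgfb 0.050 for CKO against control after PBS, and Pdgfb 0.43 after bleomycin and 0.38 for the interaction. limma voom gave Pdgfb 0.029 for bleomycin in control mice, Pdgfa 0.53 and Pdgfb 0.037 for CKO against control after PBS, and Pdgfc 0.22 for bleomycin in CKO mice, where upper quartile scaling gave Pdgfc 0.0037. With labelled sex, Pdgfd was −0.46 for CKO against control after PBS and 0.038 for the interaction, and Pdgfra −0.11 for bleomycin in CKO mice. With the number series, Pdgfd was −0.54 for CKO against control after PBS, and Pdgfb 0.26 after bleomycin and 0.50 for the interaction. With the order of the columns, edgeR and DESeq2 gave Pdgfd −0.22 and −0.21 for CKO against control after PBS, and for the interaction Pdgfra 0.28 and 0.31 and Pdgfrb 0.13 and 0.17. Without the 3 libraries whose sex genes go against the label, bleomycin in CKO mice gave Pdgfra −2.47, Pdgfrb −1.13 and Pdgfd −1.64 in edgeR, −2.46, −1.12 and −1.61 in DESeq2, and −1.08, −0.60 and −0.88 in limma voom. limma voom without them gave Pdgfb 0.21 for bleomycin in control mice, and Pdgfa 0.54 and Pdgfb 0.043 for CKO against control after PBS. The cause of these reversals was not tested.

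With 1 library left out at a time, 466 log2 fold changes kept their direction and 34 did not. For CKO against control after PBS they ranged from −4.32 to 2.60 for Pdgfra, −3.94 to 1.55 for Pdgfrb, −0.38 to 0.87 for Pdgfa, −1.10 to 0.79 for Pdgfb, −0.23 to 0.64 for Pdgfc and −0.33 to 1.06 for Pdgfd. For bleomycin in control mice Pdgfb ranged from −0.91 to 0.33 (the latter without control PBS mouse 1). In CKO mice Pdgfra ranged from −1.17 (without CKO bleomycin mouse 2) to 3.34 (without CKO PBS mouse 3), Pdgfc from −0.62 to 0.61 (without CKO PBS mouse 5) and Pdgfd from −1.49 (without CKO bleomycin mouse 2) to 0.98. The interaction ranged from −4.42 to 2.48 for Pdgfra, −3.76 to 1.70 for Pdgfrb (lowest without control PBS mouse 3, highest without CKO PBS mouse 3) and −1.36 to 0.53 for Pdgfb. Pdgfra, Pdgfrb, Pdgfa, Pdgfb and Pdgfc stayed lower in CKO than in control mice after bleomycin whichever library was left out. Pdgfd stayed lower in the 15 such fits that gave it a value. Pdgfd has no value without control bleomycin mouse 3 or 4, or with only the groups compared in 2 comparisons, because it then failed the filter.

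Of the 12 correlations, 8 had an adjusted permutation p under 0.05, and the share of all genes tested that would pass was not computed. The count was 3 with group means removed, 4 within series 11, 2 within series 12, 7 without the 3 libraries whose sex genes go against the label (chosen after seeing the data), and 6 to 9 with 1 library left out. The direction changed within series 11 for Pdgfc with the macrophage score (0.125), within series 12 for Pdgfb with the fibroblast score (−0.482) and Pdgfd with the macrophage score (0.223), and without control PBS mouse 4 for Pdgfb with the fibroblast score (leave-one-out range −0.0637 to 0.286). Each of the 6 genes had 18 or more counts in every library. No paired analysis was possible because no groups that were compared share an animal number. The labels repeat a number only between control PBS mouse 1 and CKO bleomycin mouse 2, and between control bleomycin mouse 2 and CKO PBS mouse 2.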

Other observations

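Pdgfrl, a gene named for its likeness to the PDGF receptors, is not one of the 6 genes and did not pass the filter. It measured 3.88 ± 2.32 CPM in control bleomycin libraries, 1.63 ± 2.97 in control PBS, 0.684 ± 0.909 in CKO bleomycin and 0.631 ± 1.05 in CKO PBS libraries (SD, n = 4, 4, 4 and 5), from 0 in control PBS mouse 4 to 6.95 in control bleomycin mouse 1.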
